A study of Mus musculus with 4 samples.

Results

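RNA of Lin−LEPR+ bone marrow cells was read here for 34 genes of blood vessel endothelium, out of 37310 genes in the annotation. The genes were chosen by name and not by a cut on measured values, but with earlier results of these data known. They were 4 of sinusoidal vessels (Stab1, Stab2, Flt4 and Lyve1) and 5 of arterial vessels (Sox17, Dll4, Notch4, Gja4 and Gja5). The other 25 are carried by endothelium more generally. In the bone marrow, arteries feed thin-walled sinusoids, whose discontinuous lining takes up waste molecules through scavenger receptors and lets blood cells pass. Leptin receptor (LEPR) stromal cells lie around these sinusoids and secrete Cxcl12 and stem cell factor (Kitl). Endothelial tubes are held together by VE-cadherin and claudin 5 and grow in response to VEGF, apelin and Notch signals.

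The cells came from wild-type C57Bl/6 mice, here called mature at an age of 3 months and elderly at 24 months, and each age gave 2 libraries. All mice were male according to the methods. The sample labels give the source as bone marrow, whereas the methods describe sorting for LEPR and against the lineage markers Ter119, CD31 and CD45. CD31 is the product of Pecam1, a member here, so the gate was set against endothelial cells, as CD45 set it against blood cells, macrophages included. RNA of 3 or 4 mice was pooled per group by the methods, whereas the sample titles read as single mice, and whether the libraries of an age came from separate mice is not given. Each SD (n = 2) and each p-value therefore measures the spread between libraries, which may be technical. A permutation test over 2 libraries against 2 cannot give a p-value below 1 in 3.

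The libraries held between 10472117 and 15650518 counts. Libraries of 1 age differed by more than sampling noise (chi-square over its degrees of freedom 16.0 for the mature pair and 34.2 for the elderly pair), and none was a copy of another. Lepr was counted at 6042 ± 532.5 CPM in mature and 4914 ± 1121 CPM in elderly libraries (CPM, counts scaled to library size and TMM factor, here and below as mean ± SD, n = 2). In edgeR's quasi-likelihood test, 6 of 9 tested erythroid markers and 5 of 9 neutrophil markers were called higher in elderly mice (adjusted p under 0.05). Of all genes tested, 1.94% were called higher. By sign, 9 of 9 were higher in each list, against 49.6% of all genes tested. Summed levels of the erythroid list were 149.9 to 349.2 CPM in mature and 1167 to 1318 CPM in elderly libraries. Those of the neutrophil list were 1207 to 2113 and 4390 to 4495 CPM. The LEPR stromal list had 0 of 11 genes called by edgeR or by DESeq2 (3 at an unadjusted p under 0.05), with 10 of 11 lower by sign, 6 of them below in both elderly libraries, and a median log2 fold change of −0.29. Its summed level was 26840 and 27680 CPM in mature against 17070 and 23530 CPM in elderly mice. The B lineage list had 2 of 9 tested genes called higher and 7 of 9 higher by sign, with a median log2 fold change of 1.65. The part of these cells in the results below was not tested. In bulk RNA, fewer cells of a type and less RNA per cell cannot be told apart.

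The promoters of the 3 genes whose change with age passed the test (Stab1, Flt4 and Gja5), of the second stabilin gene and of Esm1, the member with by far the most reads, are shown as the 250 bases before the annotated start, from RefSeq on build GRCm38.p6. ETS factors such as ERG and FLI1 switch on endothelial genes, and capitals mark the ETS core AGGAAG or its reverse complement CTTCCT. The window of Stab1 lies at chr14:31168642-31168891, minus strand, Stab2 at chr10:87007943-87008192, minus strand, Flt4 at chr11:49609429-49609678, plus strand, Gja5 at chr3:97032152-97032401, plus strand, and Esm1 at chr13:113209409-113209658, plus strand. Each is printed 5′ to 3′ on the strand of its gene.
Stab1: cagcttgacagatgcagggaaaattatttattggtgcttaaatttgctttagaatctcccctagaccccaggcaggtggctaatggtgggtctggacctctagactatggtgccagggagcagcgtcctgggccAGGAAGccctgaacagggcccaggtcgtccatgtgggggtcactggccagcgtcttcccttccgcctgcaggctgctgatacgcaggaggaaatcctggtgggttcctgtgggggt
Stab2: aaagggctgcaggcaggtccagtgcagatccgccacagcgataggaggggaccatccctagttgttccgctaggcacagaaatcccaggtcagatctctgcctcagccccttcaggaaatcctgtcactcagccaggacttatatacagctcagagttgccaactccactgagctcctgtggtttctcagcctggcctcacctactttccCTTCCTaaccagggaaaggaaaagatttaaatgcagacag
Flt4: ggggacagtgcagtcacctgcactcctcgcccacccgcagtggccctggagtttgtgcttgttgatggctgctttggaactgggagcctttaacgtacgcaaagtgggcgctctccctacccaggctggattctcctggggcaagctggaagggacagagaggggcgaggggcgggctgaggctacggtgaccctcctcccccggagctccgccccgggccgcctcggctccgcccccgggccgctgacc
Gja5: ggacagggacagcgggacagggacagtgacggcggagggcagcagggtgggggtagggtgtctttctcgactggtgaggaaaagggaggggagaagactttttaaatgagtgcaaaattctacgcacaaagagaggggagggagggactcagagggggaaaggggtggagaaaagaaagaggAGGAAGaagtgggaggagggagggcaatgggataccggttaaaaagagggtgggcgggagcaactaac
Esm1: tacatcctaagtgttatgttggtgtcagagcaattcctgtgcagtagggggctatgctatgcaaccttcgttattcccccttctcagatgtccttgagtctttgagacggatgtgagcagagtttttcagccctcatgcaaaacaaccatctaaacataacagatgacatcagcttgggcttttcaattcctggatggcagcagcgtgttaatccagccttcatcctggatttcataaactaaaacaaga

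The Stab1, Stab2 and Gja5 windows each held 1 ETS core, and those of Flt4 and Esm1 held none. Of the 34 genes, 22 had a promoter in the table, with 26 promoters in all, and 14 of these genes carried the core on either strand. It was found in 57.7% of the member promoters and in 29.5% of all 32851 promoters of the same length. The core of SOX factors, searched as ACAAT and ATTGT on both strands, which does not overlap with the ETS core in its letters, was found in 30.8% of member promoters and in 27.7% of all. A match is a description of the letters and not of a bound site.

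Counting set a limit on which vessel genes could be seen at all. Only bases that belong to 1 transcript alone were counted, and the text calls these countable bases. Tek, the angiopoietin receptor, had 58 of them (1.25% of its longest transcript) and Robo4, a guidance receptor of endothelium, had 92 (2.33%), and both were at 0 counts in all 4 libraries. Erg and Cd34 had 156 each and 2 counts each over the 4 libraries, Nos3, the endothelial nitric oxide synthase, had 203 and 6 counts, and Eng, a co-receptor of the TGF-beta family, had 298 and 39 counts. Their low counts cannot be read as low expression. Tie1 and Sox17 differ from these, with 1105 and 1666 countable bases and 1 count each. In all, 28 of the 34 genes had more than 2 counts over the 4 libraries and were tested, 6 were not, and 26 reached 20 counts.

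**Figure D1:**
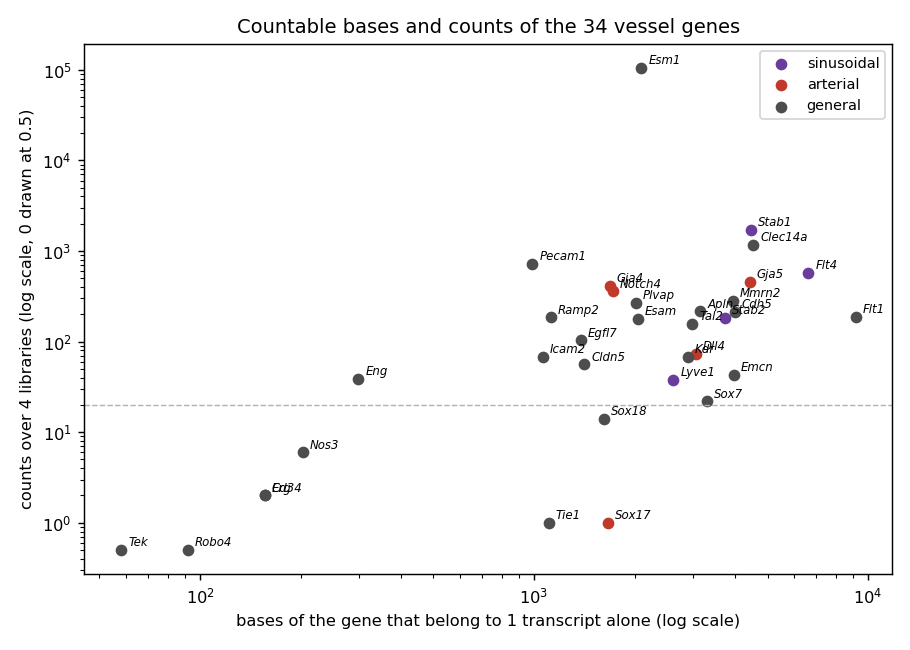
Counts summed over the 4 libraries (vertical, log scale) against the number of bases that belong to 1 transcript alone (horizontal, log scale), 1 point for each of the 34 genes, with the dashed line at 20 counts. Tek, Robo4, Erg, Cd34 and Nos3 lie at the lower left with at most 203 countable bases, whereas Tie1 and Sox17 have 1105 and 1666 and 1 count each.

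Esm1 held most of the reads of these genes. It encodes endocan, a proteoglycan that endothelial tip cells secrete. Its counts were 26667 and 21854 in mature against 19720 and 36294 in elderly libraries, which is 94.5%, 93.6%, 90.0% and 93.4% of all member counts in the same order. Per countable kilobase it stood at 999.3 CPM in mature and 986.9 CPM in elderly mice, against 2213 and 1800 CPM for Lepr and 3622 and 2339 CPM for Cxcl12. Its ages overlapped, and the log2 fold change, elderly over mature, was −0.018 ± 0.20 (standard error, as for each fold change here; adjusted p = 0.987 by edgeR's quasi-likelihood test, the test behind each adjusted p here). The sign of this small value turned to 0.036 without TMM factors. From which cells the reads of Esm1 came was not tested.

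Below Esm1, the vessel genes were low. Cdh5, which encodes VE-cadherin and is the junction protein by which endothelium is usually recognised, stood at 0.379 CPM per countable kilobase in mature and 1.56 in elderly mice. After Esm1, the highest levels per countable kilobase in mature mice were 19.6 CPM for Pecam1, 6.18 CPM for Clec14a, 4.83 CPM for Notch4 and 4.35 CPM for Ramp2, and in elderly mice 11.6 CPM for Stab1, 11.0 CPM for Pecam1 and 6.48 CPM for Gja4. Stab1 stood at 4.04 CPM per countable kilobase in mature mice, below each of the 4 genes just named.

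**Figure D2:**
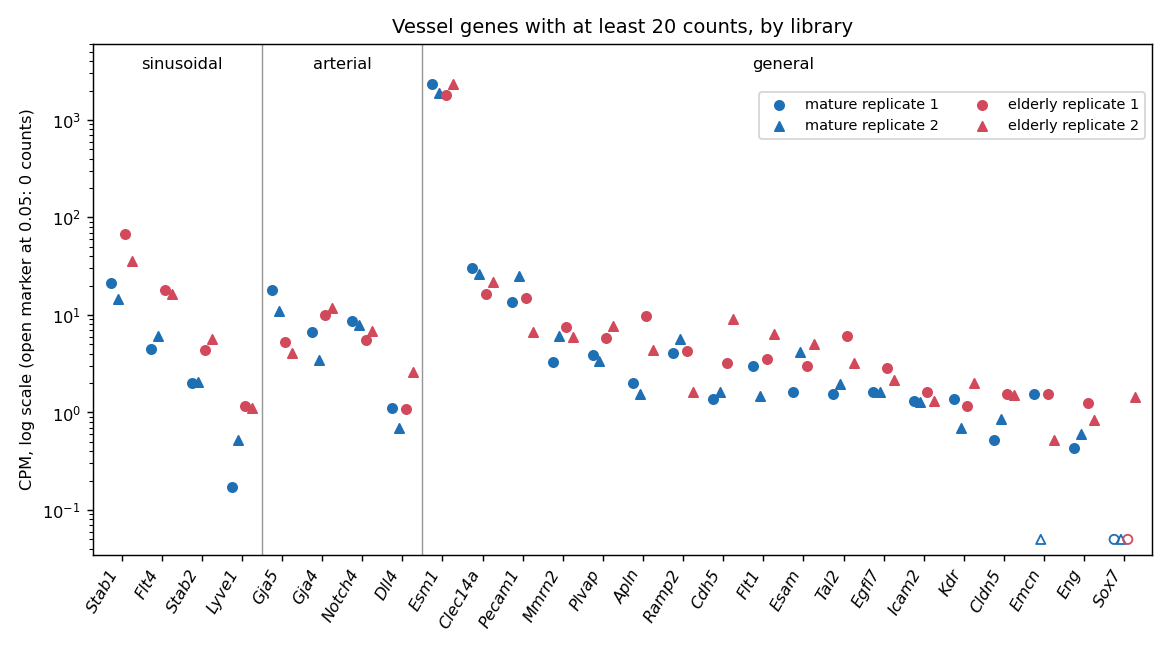
CPM on a log scale of the 26 vessel genes with at least 20 counts, in order of level within the sinusoidal, arterial and general sets, with 1 marker for each library and open markers at 0.05 for 0 counts. All 4 sinusoidal genes have both elderly libraries above both mature libraries, and Esm1, with means of 2096 and 2070 CPM, lies far above every other gene.

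All 4 sinusoidal genes were higher in both elderly libraries than in both mature ones, and 2 of them, Flt4 and Stab1, passed the test. Their median log2 fold change was 1.61. Of all 22214 genes tested, 1.94% were called higher and 0.423% lower in elderly mice at an adjusted p under 0.05, both elderly libraries lay above both mature ones in 22.0% and below them in 18.9%, and the median log2 fold change was −0.006.

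Flt4 encodes the receptor of VEGF-C and marks sinusoidal and lymphatic endothelium. Its counts were 52 and 70 in mature against 202 and 254 in elderly libraries, or 5.27 ± 1.09 and 17.4 ± 1.19 CPM. Both elderly libraries were close to each other and well above the mature pair. The log2 fold change was 1.72 ± 0.30 (adjusted p = 0.0120), a 3.29-fold higher level in elderly mice. The gene lies at chr11:49422765-49466241 (mm9, plus strand). Nearly all of its reads were on the coding transcript of 30 exons (52 and 68 counts in mature, 196 and 248 in elderly libraries), and a processed transcript held between 0 and 6 counts.

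Stab1 encodes stabilin 1, a scavenger receptor of sinusoids that macrophages also carry. It was counted 248 and 168 times in mature against 748 and 554 times in elderly libraries, or 18.0 ± 4.93 and 51.7 ± 22.2 CPM. The ages did not overlap, although elderly replicate 1 stood well above elderly replicate 2 once depth was taken into account. The log2 fold change was 1.52 ± 0.32 (adjusted p = 0.0271), a 2.87-fold higher level. The coding transcript of 69 exons at chr14:31952199-31981827 (mm9, minus strand) held 235 and 141 counts in mature and 695 and 516 in elderly libraries, and 6 transcripts with retained introns together held 13 and 27 against 53 and 38.

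Stab2, the second scavenger receptor of this family and the one more restricted to sinusoids, was at 23 and 24 counts in mature against 49 and 87 in elderly libraries (2.03 ± 0.056 and 5.04 ± 0.879 CPM). Lyve1, a hyaluronan receptor of lymphatic and some sinusoidal endothelium, was at 2 and 6 against 13 and 17 counts. Both were apart between ages without passing the test, at a log2 fold change of 1.31 ± 0.42 (adjusted p = 0.176) for Stab2 and 1.69 ± 0.88 (adjusted p = 0.544) for Lyve1. Without mature replicate 2 the value of Lyve1 was 2.63, and without mature replicate 1 it was 1.13.

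The calls of Flt4 and Stab1 were lost when either elderly library was left out (adjusted p of 0.605 to 0.611), where edgeR called 0 of all genes and 1463 and 1627 had an unadjusted p under 0.05, and in edgeR's exact test at a set dispersion of 0.2 (0.347 and 0.457). The call of Stab1 was also lost without mature replicate 2 (log2 fold change 1.24, adjusted p = 0.109).

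Some macrophage markers were higher in elderly mice as well. Of 15 such genes 13 were tested, and 10 of the 13 were higher by sign (49.6% over all genes tested). C1qa, C1qb, C1qc and Mrc1 were called higher and 9 did not pass, and DESeq2 called 3, without C1qa (adjusted p = 0.33). The 3 C1q genes, which encode the subunits of complement C1q, held 21, 25 and 14 counts in mature replicate 1, 1, 4 and 2 in mature replicate 2, 87, 102 and 48 in elderly replicate 1, and 193, 264 and 123 in elderly replicate 2. Mrc1, the mannose receptor, which sinusoidal endothelium carries too, went from 111 and 67 counts to 208 and 600. In CPM, Stab1, Flt4 and Lyve1 were higher in elderly replicate 1 than in elderly replicate 2. The C1q genes and Mrc1 were higher in elderly replicate 2, as was the sinusoidal gene Stab2. The summed level of the list was 80.85 to 96.56 CPM in mature and 125.3 to 169.0 CPM in elderly libraries. Of its defining genes, Cd163 and Fcgr1 were at 0 in every library, with at most 1.85% of their longest transcript countable. Adgre1 (listed under its older symbol Emr1) held 9 counts in all, with 3.27% countable. Csf1r was at 12 and 29 against 22 and 24 counts, and Cd68 at 122 and 202 against 108 and 130. Only 13.5% of the longest transcript of Csf1r and 17.2% of that of Cd68 were countable. C1qa also missed the threshold in the robust fit (0.166) and Mrc1 in the exact test (0.229), and in edgeR all 4 did without either elderly library (0.605 to 0.611). Without mature replicate 1 the log2 fold change of C1qa went from 3.42 to 6.75, that of C1qb from 3.39 to 5.23 and that of C1qc from 3.15 to 5.10. Ptprc, the gene of CD45, which the gate was set against, held 4 and 1 against 12 and 8 counts, with 2.61% of its longest transcript countable. The part of macrophages in the change of Stab1 was not tested.

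**Figure D3:**
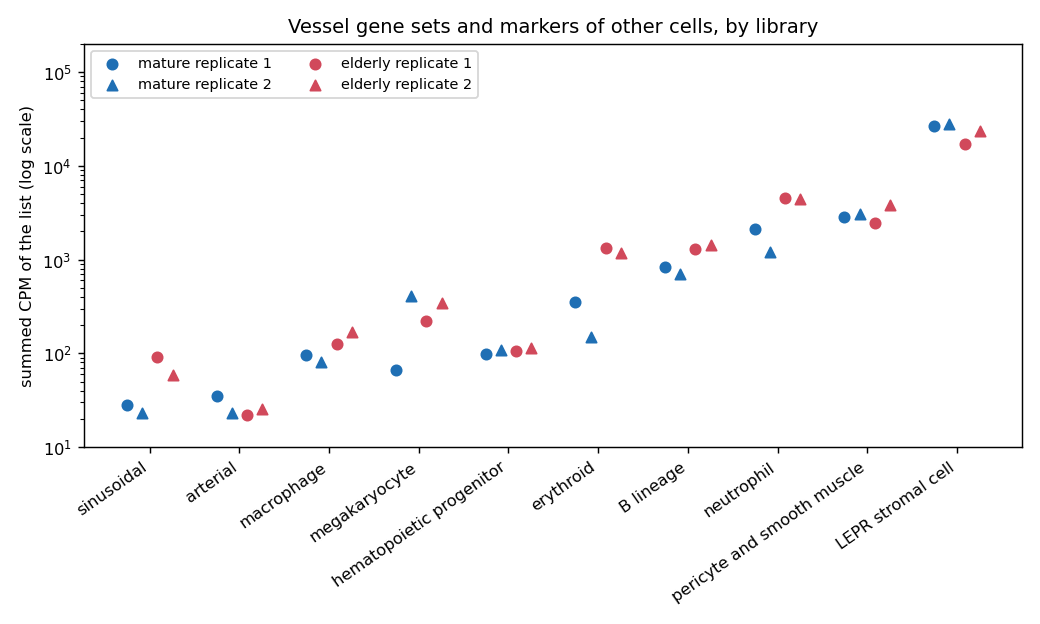
Summed CPM on a log scale of the sinusoidal and arterial genes and of 8 marker lists of other cells, with 1 marker for each library. The sinusoidal, macrophage, erythroid, B lineage and neutrophil sums are higher and the LEPR stromal sum is lower in both elderly libraries, and the megakaryocyte sum is low in mature replicate 1 alone (65.76 CPM against 221.6 to 411.5 CPM).

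The arterial genes did not share a direction. Gja5 fell with age and was the 1 member called lower. It encodes a connexin of gap junctions between arterial endothelial cells, and was counted 210 and 126 times in mature against 59 and 63 times in elderly libraries (14.5 ± 5.17 and 4.71 ± 0.862 CPM). The ages did not overlap. The log2 fold change was −1.63 ± 0.35 (adjusted p = 0.0315), a 3.09-fold lower level in elderly mice.

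The reads of Gja5 that carried this change lay on 1 of its transcripts. The gene spans chr3:96708616-96881339 (mm9, plus strand), and a coding transcript of 2 exons at chr3:96836339-96857557 held 192 and 121 counts in mature and 46 and 63 in elderly libraries. The longer coding transcript of 4 exons held 18 and 4 against 13 and 0 counts. Without mature replicate 1 the log2 fold change was −1.21 and the call was lost (adjusted p = 0.146), as it was without either elderly library (0.605 to 0.611) and in the exact test at the set dispersion (0.423).

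Gja4, the other arterial connexin, stood at 78 and 40 counts in mature against 111 and 182 in elderly libraries (5.10 ± 2.33 and 10.9 ± 1.30 CPM). Its ages did not overlap and its log2 fold change was 1.10 ± 0.37 (adjusted p = 0.208), opposite in sign to that of Gja5. It passed without mature replicate 1 (log2 fold change 1.67, adjusted p = 0.0312), and without mature replicate 2 its log2 fold change was 0.67. Notch4, an endothelial Notch receptor, was at 100 and 92 against 62 and 106 counts, with a log2 fold change of −0.40 ± 0.32 (adjusted p = 0.709). Only 302 countable bases of Notch4 belong to its main coding transcript, which held 46 and 41 against 16 and 53 counts, and most of the others lie in retained-intron and processed transcripts. Dll4, the Notch ligand of arterial and tip cells, was at 13 and 8 against 12 and 40 counts, and its ages overlapped (1.03 ± 0.67, adjusted p = 0.653, and 0.26 to 1.54 with a library left out, the lower without elderly replicate 2). Over the 4 arterial genes tested the median log2 fold change was 0.31, and without elderly replicate 2 it turned to −0.15.

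**Figure D4:**
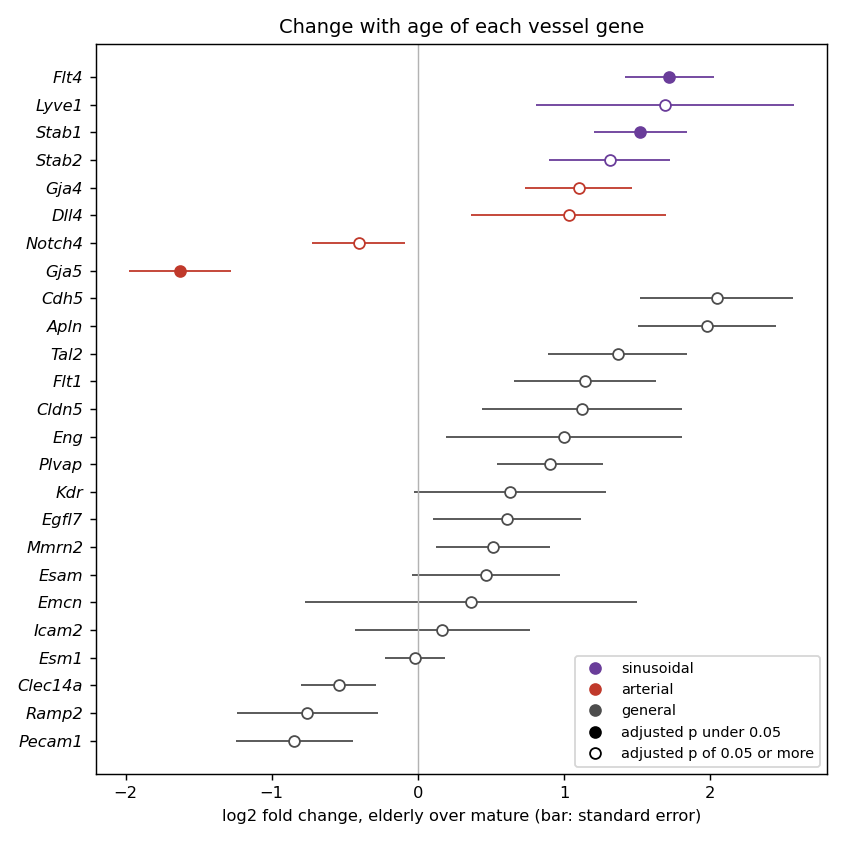
Log2 fold change, elderly over mature, with its standard error, for the 25 genes with at least 20 counts other than Sox7, whose reads came from 1 library alone. Filled points passed an adjusted p under 0.05: Flt4 and Stab1 at 1.72 and 1.52, and Gja5 at −1.63.

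Of the 25 general genes 20 were tested, and edgeR's quasi-likelihood test called 0 of them, with 6 at an unadjusted p under 0.05, whereas DESeq2 called 2, Cdh5 and Apln. Of the 20, 15 were higher and 5 lower by sign, 10 were higher in both elderly libraries than in both mature ones and 2 lower, and their median log2 fold change was 0.62. Over all 28 members tested, 2 were called higher and 1 lower, 15 were apart on the higher and 4 on the lower side, and the median was 0.95. Of all genes tested, 1.94% were called higher and 0.423% lower, and 49.6% were higher by sign. Both elderly libraries lay above both mature ones in 22.0% of all genes tested and below them in 18.9%.

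Apln and Cdh5 had the largest fold changes among the general genes with at least 20 counts, other than Sox7, whose reads came from 1 library. Apln encodes apelin, a peptide that tip cells secrete, and was at 23 and 18 counts in mature against 108 and 67 in elderly libraries (1.77 ± 0.310 and 7.05 ± 3.80 CPM). Its log2 fold change was 1.98 ± 0.47, and its adjusted p of 0.0520 missed the threshold narrowly. Over 8 other ways of testing that kept all libraries, its adjusted p was 3.9e-04 to 0.24. It passed in 7 of these 8, as did each of Flt4, Stab1 and Gja5. Cdh5 was at 16 and 19 against 36 and 141 counts (1.51 ± 0.179 and 6.21 ± 4.19 CPM). Its log2 fold change was 2.04 ± 0.52 (adjusted p = 0.0739, and 0.00116 to 0.218 over the same 8, of which it passed in 5). Both genes were apart between ages, but Apln was higher in elderly replicate 1 and Cdh5 in elderly replicate 2. Without elderly replicate 2 the log2 fold change of Cdh5 was 1.10, and without elderly replicate 1 that of Apln was 1.32, with adjusted p of 0.605 and 0.611.

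Among receptors, Flt1, a VEGF receptor that can also trap the ligand, was at 35 and 17 against 39 and 98 counts, apart between ages in CPM, with a log2 fold change of 1.14 ± 0.48 (adjusted p = 0.387, and 0.65 to 1.77 with a library left out). Kdr, the main signalling receptor of VEGF-A, was at 8 to 16 counts in mature and 13 to 31 in elderly libraries, and its ages overlapped. Clec14a, a C-type lectin of endothelium, went the other way, at 347 and 302 against 183 and 337 counts (28.0 ± 2.82 and 19.2 ± 3.84 CPM). Its CPM was lower in both elderly libraries, with a log2 fold change of −0.54 ± 0.25 (adjusted p = 0.477). Ramp2, which makes the calcitonin-receptor-like protein a receptor of adrenomedullin, was at 47 and 66 against 47 and 25 counts and overlapped between ages (−0.76 ± 0.48, adjusted p = 0.652). Its value was −1.55 without elderly replicate 1 and −0.20 without elderly replicate 2.

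Pecam1, the gene of the adhesion molecule CD31, was at 156 and 292 counts in mature against 167 and 102 in elderly libraries (19.3 ± 8.25 and 10.9 ± 5.95 CPM). Mature replicate 2 was the highest and elderly replicate 2 the lowest, and the ages overlapped, with a log2 fold change of −0.84 ± 0.40 (adjusted p = 0.481). Leaving out elderly replicate 1 gave −1.51, and leaving out elderly replicate 2 gave −0.36. Platelets and megakaryocytes carry CD31 as well. The summed level of their marker list was 65.76 and 411.5 CPM in mature and 221.6 and 341.6 CPM in elderly libraries. Of its 11 tested genes, 0 had an unadjusted p under 0.05 in edgeR's quasi-likelihood test or were called by it or by DESeq2. The part of these cells in the counts of Pecam1 was not tested.

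The other genes of junctions, adhesion and the vessel wall were low. Plvap, which forms the diaphragms of endothelial openings, was at 45 and 39 against 65 and 118 counts and apart between ages (0.90 ± 0.36, adjusted p = 0.344). Mmrn2, an extracellular partner of Clec14a, was at 38 and 71 against 83 and 92 counts (0.51 ± 0.39, adjusted p = 0.702, and 0.14 to 1.00 with a library left out). Esam, a tight junction adhesion molecule, was at 19 and 49 against 33 and 78 counts (0.46 ± 0.51, adjusted p = 0.830). The ages overlapped for Mmrn2 and Esam, and the fold change of Esam changed sign to −0.049 without mature replicate 1.

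Cldn5, Egfl7, Icam2, Eng and Emcn held between 0 and 33 counts in any library. Cldn5 (claudin 5), Egfl7 (a secreted factor of endothelium), Icam2 and Eng were apart on the higher side. Their log2 fold changes were 1.12, 0.61, 0.17 and 1.00, with adjusted p of 0.634 to 0.958. Icam2 was apart by a margin within rounding, at 1.3 and 1.29 CPM in mature and 1.62 and 1.3 CPM in elderly libraries. Of the 298 countable bases of Eng, 226 lie on a processed transcript, which held 4 and 4 against 8 and 12 counts. Emcn (endomucin, a sialomucin of sinusoids and veins) was at 18 and 0 against 17 and 8 counts, so that it differed more between the mature libraries than between the ages. The coding transcript of Emcn held 10 and 0 against 3 and 0 counts. A retained-intron transcript held 8 and 0 against 14 and 8. The log2 fold change of Emcn, 0.37 ± 1.14 (adjusted p = 0.952), turned to −0.66 without mature replicate 2.

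Of the transcription factors that were tested, the SOX genes were near the limit of counting and Tal2 was above it. Sox7 had 22 counts in elderly replicate 2 and 0 in the other 3 libraries. Sox18 had 0 and 2 counts in mature against 4 and 8 in elderly libraries. A count of 3 corresponds to between 0.195 and 0.27 CPM in these libraries, and a lower level of either gene was not detectable at this depth (these limits cover counting error only). Tal2, a relative of the blood and vessel factor Tal1, was at 18 and 23 against 67 and 49 counts, apart between ages, with a log2 fold change of 1.37 ± 0.48 (adjusted p = 0.239).

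The share of the sinusoidal genes among all member reads per countable kilobase was 0.528% and 0.511% in mature against 2.12% and 1.06% in elderly libraries. It was higher in both elderly libraries, by 1.07 percentage points on average. Esm1 sets the scale of this share, and without it the values were 11.0% and 7.64% against 25.7% and 20.5%. Without Stab1 they were 0.111% and 0.173% against 0.482% and 0.376%.

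Other genes of endothelium were read from a list of 44, of which 38 were tested. Adgrl4 (listed under its older symbol Eltd1), an adhesion receptor of growing vessels, rose from 8 and 7 counts to 70 and 104, with a log2 fold change of 3.32 ± 0.46 (adjusted p = 0.00316), and Mrc1 rose by 1.91 ± 0.38 on the log2 scale (adjusted p = 0.0209). The Notch target genes Hey2 and Hey1, which mark arterial endothelium but are not particular to it, fell. Hey2 went from 120 counts in each mature library to 11 and 26 (−2.91 ± 0.40, adjusted p = 0.00286), and Hey1 from 481 and 559 to 247 and 352 (−0.99 ± 0.23, adjusted p = 0.0427). In edgeR the other 34 tested genes did not pass, whereas DESeq2 called 3 of them, Fli1, Cyyr1 and Ets2. Of the 38, edgeR's quasi-likelihood test called 2 higher and 2 lower, against 1.94% and 0.423% of all genes tested. It gave 15 an unadjusted p under 0.05. By CPM, 17 were apart on the higher and 9 on the lower side, against 22.0% and 18.9% of all genes tested. The median log2 fold change of the list was 0.36. The call of Hey1 was lost without either mature library (adjusted p of 0.0658 and 0.217), without TMM factors (0.0501) and in the exact test (1), and that of Mrc1 without mature replicate 2 (0.0554) and in the exact test (0.229). In edgeR none of the 4 calls held without either elderly library (0.605 to 0.611).

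Of 26 ligands and co-receptors of vessel growth 25 were tested, and edgeR called 2, both higher, while DESeq2 called these and Edn1 (0 and 6 against 21 and 78 counts). Their median log2 fold change was 0.064. Adm, which encodes adrenomedullin, was at 463 and 496 counts in mature against 1059 and 2280 in elderly libraries (41.4 ± 1.90 and 121.9 ± 37.4 CPM), with a log2 fold change of 1.56 ± 0.24 (adjusted p = 0.00527). Thbs1, which encodes the matrix protein thrombospondin 1, an inhibitor of vessel growth, went from 17075 and 14292 to 24750 and 50010 counts (1.02 ± 0.22, adjusted p = 0.0316). Both were higher in elderly replicate 2 than in elderly replicate 1. The call of Thbs1 was lost without either mature library (adjusted p of 0.305 and 0.573) and with edgeR's filterByExpr (0.0552), and in edgeR neither call held without either elderly library (0.605 to 0.611) or in the exact test at the set dispersion (0.44 for Adm and 0.976 for Thbs1). Vegfc, the ligand of Flt4, was at 5414 and 4846 against 2617 and 6553 counts, and its ages overlapped (−0.42 ± 0.25, adjusted p = 0.624).

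**Figure D5:**
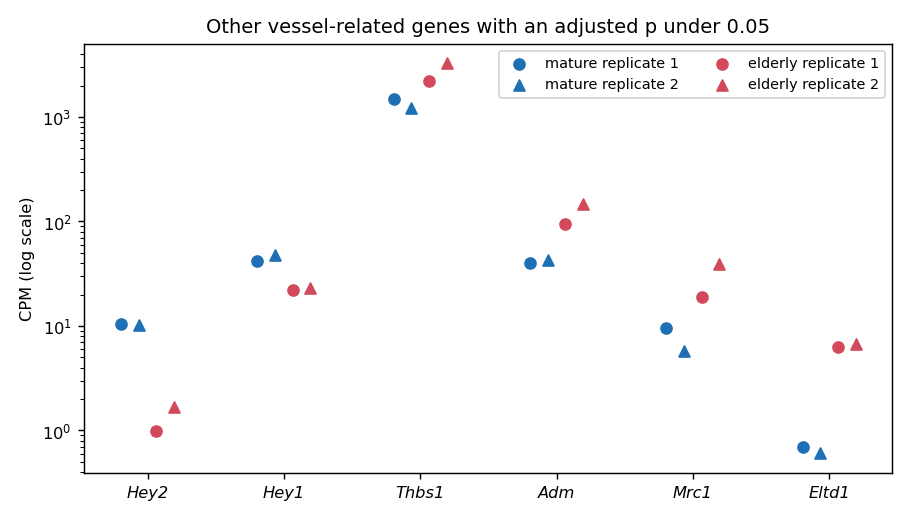
CPM on a log scale of the 6 genes of the other endothelial list and the ligand list with an adjusted p under 0.05, with 1 marker for each library. Hey2 and Hey1 are lower in both elderly libraries, and Thbs1, Adm, Mrc1 and Eltd1 (Adgrl4) are higher in both.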

How the data were processed

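RNA-seq of 4 libraries was analysed, 2 from mature and 2 from elderly mice, grouped by the ages in the sample labels. By the methods poly(A) RNA was selected, except for some samples that were processed as total RNA. A name among the excepted samples gives an age in weeks close to that of the mature mice. The sample labels do not use these names, so whether a library here was among them is not given. Any part of library preparation in the results was not tested. The authors trimmed the reads (cutadapt), aligned them to mm9 (HISAT2) and assigned them to transcripts (featureCounts). Versions and the strand setting are not given in the sources used here. The deposited values are raw counts per Ensembl transcript. GENCODE release M1 lacked 388 of these transcripts, which held 0.0785% to 0.0888% of the counts. Every transcript without a base of its own (25621) had 0 counts, so reads on bases that transcripts share were dropped, on either strand.

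Counts were summed per gene. Genes with more than 2 counts over the 4 libraries (22214) were scaled by TMM and compared with edgeR 4.0.16 (R 4.3.3) by the quasi-likelihood test with a trended dispersion (2-sided, prior count 0.125), adjusted by Benjamini-Hochberg over all of them and called under 0.05. The standard error was taken as the log2 fold change divided by the root of F. The biological coefficient of variation was 0.265.

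All members are accounted for. Counts per library are given for the sinusoidal members, each called member and the 12 others with most counts, and a fold change only from 20 counts on, and called genes are named from the other endothelial and ligand lists. Further members, markers and Vegfc were added after their values were seen. The members, gene lists and tests were chosen with earlier results of these data known. Alternatives in scaling were library size alone in place of TMM, and TMM factors that ignored immunoglobulin, hemoglobin and histone genes. In testing they were DESeq2 1.42.0, edgeR's exact test at a dispersion of 0.2, no filter, filterByExpr and the replicate block. The exact test and its dispersion were those of the study. It was run here on gene sums and called at an adjusted p, so it did not repeat the study's own calls. Further alternatives were transcripts tested singly, a log2 fold change over 1, and each library left out. The robust fit, DESeq2 with a library left out, the share without Esm1 and medians with Sox7 at a limit were added after seeing the data.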

Additional observations from a re-analysis of the deposited data

How the results depend on the processing

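Of the single-gene values, 180 kept their direction and side of the threshold under the alternatives that kept all libraries, 3 lost the call (Flt4, Stab1 and Gja5 in the exact test), 13 gained one and 1 changed sign. With a library left out the numbers were 85, 8, 2 and 5. Genes called higher and lower in elderly mice were 430 and 94 as reported, 179 and 29 by the exact test, 866 and 218 without a filter, 691 and 188 by the robust fit, and lower 153 by DESeq2. Members called higher were 4 by DESeq2, without a filter, by the robust fit, with TMM without immunoglobulin, hemoglobin and histone genes and with transcripts tested singly, and 0 by the exact test, which also called 0 lower (1634 genes had an unadjusted p under 0.05 there).

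The replicate block called 962 genes higher and 314 lower and 5 members higher, with a median of 0.77 for the general members. Same-numbered libraries did not deviate together over all genes (correlation 0.00919). With 2 libraries per age this is a single value, which cannot decide whether the numbers pair the samples. With 1 library left out, edgeR called 0 to 580 genes higher and 0 to 94 lower, and 0 to 4 members higher and 0 to 1 lower. The zeros came without elderly replicate 1 or 2, where the prior degrees of freedom were 1.6 and 1.59 and 1463 and 1627 genes had an unadjusted p under 0.05. DESeq2 called 235 higher without elderly replicate 1, with 0 members in either direction, 275 higher and 148 lower without elderly replicate 2, 34 lower without mature replicate 1, and 207 higher and 43 lower without mature replicate 2. It called 1 member higher without each of the other 3 libraries, and 0 lower without mature replicate 1 or elderly replicate 2.

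The median log2 fold change of all members was 1.01 without TMM factors (which moved the median of all genes by 0.06), 1.03 without a filter, 0.76 with filterByExpr, and 0.69 to 1.07 with a library left out. Leaving out a library gave 1.41 to 1.76 for the sinusoidal, −0.15 to 0.55 for the arterial and 0.67 to 0.80 for the general members, and no filter gave 1.05 for the arterial ones. The difference in the sinusoidal share of 1.07 percentage points was 0.287 without Stab1, 13.8 without Esm1 and 2.33 with counts not divided by length. Signs turned for Esm1 (0.036 without TMM factors, −0.23 to 0.20 with a library left out), Emcn (−0.66 to 6.68) and Esam (−0.049 to 1.28). The cause of these changes was not tested.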

Other observations

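Ly6a, which encodes the surface protein Sca-1 of progenitors and of arterial endothelium, rose from 111 and 161 counts to 461 and 566 in elderly mice (log2 fold change 1.74 ± 0.27, adjusted p = 0.00556 by edgeR's quasi-likelihood test). The call was lost in edgeR's exact test at a dispersion of 0.2 (0.31) and in edgeR without either elderly library (0.605 and 0.611). It was the 1 gene that edgeR called of 12 hematopoietic progenitor markers, and DESeq2 called 2, Ly6a and Tal1. The summed level of the list was 99.5 and 108.3 CPM in mature and 105.3 and 114.6 CPM in elderly libraries. Most of the mature sum was Hoxa9, at 69.2 and 77.7 CPM in mature and 37.3 and 60.3 CPM in elderly libraries. By sign 7 of the 12 genes were higher and 5 lower. The median log2 fold change was 1.57, and 0.625 over the 6 genes with at least 20 counts.

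Markers of pericytes and smooth muscle, the cells that wrap vessels, were not called in either direction by edgeR (0 of 9 tested, 1 at an unadjusted p under 0.05), and DESeq2 called 1, Acta2. The list had a median log2 fold change of 0.012. Notch3, a Notch receptor of mural cells, was among the well-counted ones at 31906 and 33444 counts in mature and 25632 and 56494 in elderly libraries (0.085 ± 0.23, adjusted p = 0.942). Acta2, smooth muscle actin, was at 20 and 47 against 136 and 123 counts, apart between ages, at a log2 fold change of 1.80 ± 0.43 (adjusted p = 0.0532).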
